A study of Mus musculus with 4 samples.

Results

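Expression of 10 regulators of the multiciliated cell fate was examined in the retina of mouse embryos labelled wild-type or Foxn3KO. The members were chosen by name: the geminin family proteins Gmnc, Mcidas and Gmnn, the E2F complex subunits E2f4, E2f5 and Tfdp1, the transcription factors Myb and Trp73, and the centriole amplification factors Ccno and Deup1. Of the 10, 8 were listed in the deposited table of 18471 genes, and all 8 passed the low-count filter that left 17300 tested genes. Gmnc and Mcidas were not listed and were not analysed here.

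Multiciliated cells, found in airway, ependyma, choroid plexus and oviduct, carry many motile cilia, each on its own basal body. In those cells Gmnc and then Mcidas bind E2F4 or E2F5 with the dimerisation partner TFDP1 and switch on Myb, Trp73, Foxj1 and the genes for centriole amplification. Ccno, an atypical cyclin, and Deup1, a scaffold protein, act at the deuterosome, the structure on which most of the new centrioles are built. Geminin (Gmnn), a relative of Gmnc and Mcidas, binds and restrains the replication licensing factor Cdt1 and can pair with both relatives. Retinal cells normally form a single primary cilium, and several members also have roles in dividing progenitors that are separate from multiciliation.

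The 4 libraries were from retinas of individually genotyped embryos at embryonic day 19: 2 wild-type and 2 homozygous (Foxn3-/-) for a deletion of exon 3 of the forkhead gene Foxn3, in the line C57BL/6NJ-Foxn3em1(IMPC)Bay/Mmnc. The sources used here name no Cre, no tissue-specific promoter and no second allele, and do not say whether the embryos were littermates. Total counts ranged from 22543531 to 29360129 per library. Counts of Foxn3 itself were 2421 and 2712 under the wild-type label and 4181 and 3219 under the Foxn3KO label, a difference of 0.54 on the log2 scale (SE 0.046). Gene counts do not resolve exon 3, so every direction below rests on the labels. Wild-type replicate 1 had 83073 Xist counts against 9 to 19 elsewhere, so that library differs in sex pattern from the rest. The 14 retinal markers examined, among them Rax, Crx and Pou4f2, were all listed. Their summed level was 3485 to 3666 CPM per library (counts over the TMM-scaled library size, as edgeR computes it). Of the 14, 3 were called higher and 1 lower, and 9 did not overlap between the groups. Over all tested genes 21.9% were called and 60.4% did not overlap, so these counts are near the background. In whole tissue, a change in RNA per cell and a change in the number of expressing cells cannot be told apart.

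The centriole amplification factors were the only members to pass the test in this fit (edgeR quasi-likelihood, Benjamini-Hochberg adjusted p under 0.05). Ccno and Deup1 were both higher in the libraries labelled Foxn3KO, 8.83-fold and 3.33-fold. The listed geminin family member, the E2F complex subunits, Myb and Trp73 did not pass. Over all tested genes 21.9% passed, 12.3% higher and 9.66% lower, so 2 of 8 is close to the background and the count alone does not set the members apart.

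Counts of Ccno (ENSMUSG00000042417) were 40 and 27 under the wild-type label and 342 and 249 under the Foxn3KO label. Scaled by library size, this was 1.61 and 0.994 CPM against 11.7 and 11.1 CPM. Both libraries labelled Foxn3KO were far above both wild-type libraries, and the groups did not overlap. The group means were 1.30 ± 0.438 and 11.4 ± 0.443 CPM (SD, n = 2 per group). On the log2 scale the rise was 3.14 (SE 0.190, edgeR adjusted p = 6.89e-10), which is 8.83-fold with a 95% interval of 6.69 to 11.7. Ccno held rank 94 of 17300 tested genes by log2 fold change. Without wild-type replicate 1 its log2 fold change was 3.52, and without wild-type replicate 2 it was 2.83.

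Deup1 (ENSMUSG00000039977) had few counts, with 12 and 10 counts under the wild-type label and 38 and 35 under the Foxn3KO label, or 0.484 and 0.368 CPM against 1.30 and 1.56 CPM. The lowest library labelled Foxn3KO lay above the highest wild-type library. The group means were 0.426 ± 0.0819 and 1.43 ± 0.182 CPM (SD, n = 2 per group). On the log2 scale the rise was 1.73 (SE 0.389, edgeR adjusted p = 0.00353), which is 3.33-fold with a 95% interval of 1.88 to 5.88. DESeq2 also called it (adjusted p = 0.0219). The authors' deposited table gives Deup1 a log2 fold change of 1.25 and Ccno 3.10, against 1.75 and 3.15 from DESeq2 run on the counts here. The deposited adjusted p of Deup1 is the same as that from DESeq2 here to the digits printed (0.0219), so for Deup1 the gap is in the fold change and not in the test. The antisense gene 4930540M03Rik overlaps Deup1 and was not listed, and the strand setting of the counting is not given in the sources used here. Cep63, the Deup1 paralog that serves the ordinary centriole pathway, had 1589 and 1634 counts in wild-type and 1792 and 1382 in Foxn3KO libraries, and its log2 fold change was -0.01 (95% interval -0.13 to 0.11).

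**Figure D1:**
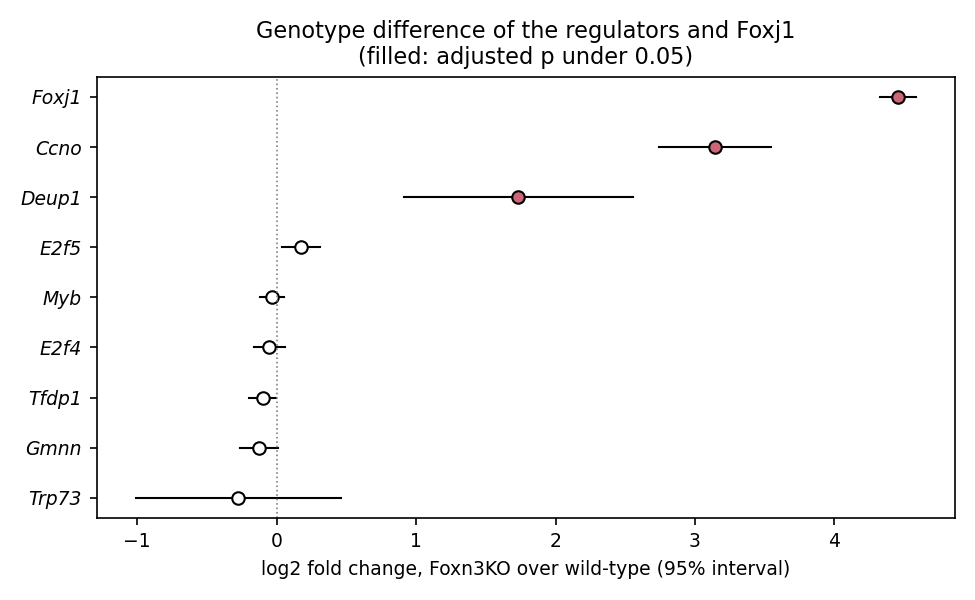
Log2 fold change of the 8 listed regulators and Foxj1 (x axis, Foxn3KO over wild-type) with 95% intervals from the edgeR fit; filled points passed an adjusted p of 0.05. Ccno (3.14) and Deup1 (1.73) stand to the right below Foxj1 (4.45), and the other 6 regulators lie between -0.28 and 0.18.

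The promoters of the members that rose are shown because both held the same pair of short motifs. Each line gives the 250 bases before an annotated transcription start from RefSeq on build GRCm38.p6, 5′ to 3′ on the gene's strand; the deposited table is on mm39 per the submitters' processing notes, so these positions are not those of the table's build. Capitals mark GACGC, a forkhead-like motif, and GTTGCC, the core bound by RFX factors, on either strand, where they read GCGTC and GGCAAC. The windows are chr13:112987552-112987801 (+) for Ccno, chr9:15627847-15628096 (-) for Deup1 and, for comparison, chr13:112993618-112993867 (+) for Mcidas, the neighbour of Ccno that was not listed.
Ccno: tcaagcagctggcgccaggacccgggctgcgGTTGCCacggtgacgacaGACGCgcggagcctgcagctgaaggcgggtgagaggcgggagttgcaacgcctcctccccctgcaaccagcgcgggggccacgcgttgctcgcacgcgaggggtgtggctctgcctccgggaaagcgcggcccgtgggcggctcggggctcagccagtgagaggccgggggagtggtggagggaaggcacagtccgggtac
Deup1: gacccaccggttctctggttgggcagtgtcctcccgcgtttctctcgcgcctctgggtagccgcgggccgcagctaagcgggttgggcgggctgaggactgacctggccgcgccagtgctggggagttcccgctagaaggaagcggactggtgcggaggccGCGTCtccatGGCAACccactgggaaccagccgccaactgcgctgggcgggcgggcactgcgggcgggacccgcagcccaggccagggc
Mcidas: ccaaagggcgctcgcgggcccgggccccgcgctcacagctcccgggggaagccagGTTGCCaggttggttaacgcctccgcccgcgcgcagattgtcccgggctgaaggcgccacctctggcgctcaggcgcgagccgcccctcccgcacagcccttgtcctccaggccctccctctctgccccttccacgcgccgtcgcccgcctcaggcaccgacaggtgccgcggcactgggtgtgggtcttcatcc

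In the Ccno window GTTGCC ended 213 bases before the start and GACGC 196 bases before it. In the Deup1 window GCGTC ended 84 bases and GGCAAC 73 bases before the start. The Mcidas window held GTTGCC, 189 bases before the start, and no GACGC. The window of Cdc20b, the gene after Mcidas (not shown), held GACGC, read as GCGTC, 24 bases before the start, and no GTTGCC. A second annotated Deup1 start had neither in its window. Of the 10 members, 7 had a window in the RefSeq table (all but Gmnn, E2f4 and E2f5). GACGC was found for 3 of the 7 (Ccno, Deup1 and Tfdp1) and GTTGCC for 3 (Ccno, Deup1 and Mcidas).

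Over 32851 windows of the same length, 22.6% held GACGC, 10.4% held GTTGCC and 2.45% held both. The windows of Ccno, Deup1 and Mcidas were rich in G and C (72.4%, 72.0% and 73.6%, against a median of 52.4%). Among the 3037 windows of at least 70% GC, 56.4% held GACGC, 8.36% held GTTGCC and 4.74% held both. The forkhead core GTAAACA, present in 3.17% of windows, was in none of the members' windows. The E2F motif TTTNNCGC, present in 4.28%, was found only for Tfdp1 among the 7. Near matches were not counted, such as TTTGGCGG in the Myb window, which differs in the last letter. No 2 motifs overlapped in these windows, and a match describes the letters and not a bound site.

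Ccno lies on chromosome 13 between Dhx29 and Mcidas, followed by Cdc20b and Gpx8 (gene order from GENCODE M21). In multiciliated cells Ccno, Mcidas and Cdc20b, a further deuterosome gene, are known to be switched on together. Counts of Cdc20b were 9 and 7 under the wild-type label and 7 and 7 under the Foxn3KO label, and the groups overlapped. It did not pass the low-count filter, and with no filter its log2 fold change was -0.18 (SE 0.617, edgeR adjusted p = 0.883), so counts this low could not show a moderate change. Ccno had 40 and 27 counts in wild-type libraries, which is also low, but reached 342 and 249.

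The gene before Ccno, Dhx29, an RNA helicase of translation initiation, rose, with group means of 51.4 ± 0.683 and 62.4 ± 1.49 CPM (SD, n = 2 per group). Its log2 fold change was 0.28 (edgeR adjusted p = 0.00139), against 3.14 for Ccno, and the difference between these genes was not tested. Gpx8, an endoplasmic reticulum peroxidase, had a log2 fold change of 0.09 (edgeR adjusted p = 0.373). Mtrex, an exosome cofactor, had -0.11 (edgeR adjusted p = 0.132). Plpp1, a lipid phosphatase, had 0.12 (edgeR adjusted p = 0.484) and Snx18, a sorting nexin, -0.10 (edgeR adjusted p = 0.398). Of the 7 genes on this list, 6 were listed and 5 tested, with 1 called higher and none lower, where 21.9% of all tested genes were called.

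**Figure D2:**
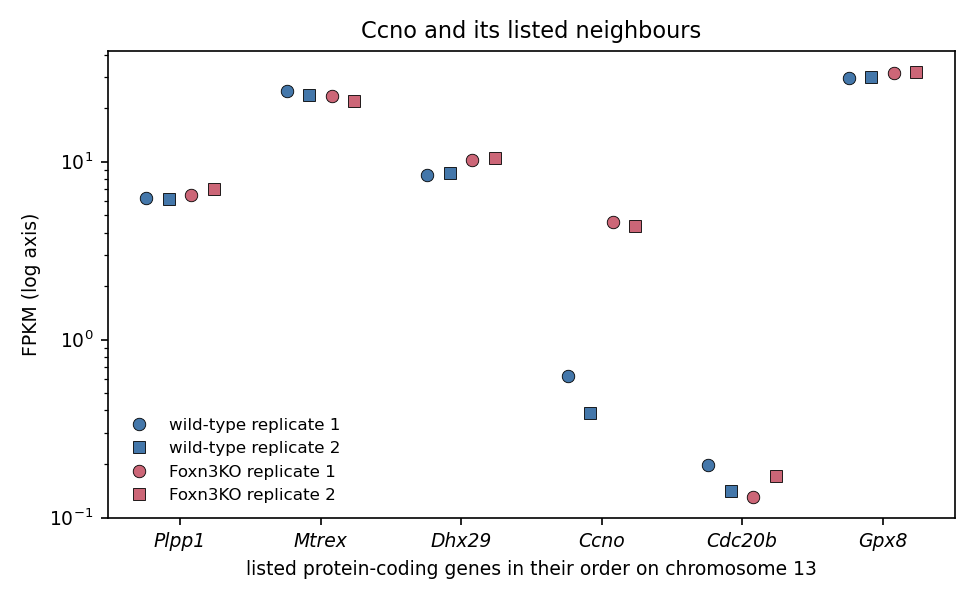
FPKM on a log axis (y) for Ccno and its listed protein-coding neighbours in their order on chromosome 13 (x); each point is a library, circles for replicate 1 and squares for replicate 2. The points of Ccno split by label, from at most 0.628 to at least 4.34 FPKM, while those of Cdc20b overlap.

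Foxj1, the forkhead factor that drives motile cilia genes and acts beside these regulators, rose by 4.45 (log2; edgeR adjusted p = 1.61e-18), with group means of 8.01 ± 0.436 and 176 ± 1.58 CPM (SD, n = 2 per group). For every 100 Foxj1 counts there were 20.9 and 11.9 Ccno counts in the wild-type libraries and 6.64 and 6.36 in the libraries labelled Foxn3KO. Deup1 stood at 6.28 and 4.42 per 100 Foxj1 counts in wild-type and 0.737 and 0.894 in Foxn3KO libraries. Both ratios were thus lower in the libraries labelled Foxn3KO although the counts themselves were higher. Of the 6 genes of the Foxj1 and Rfx list, 4 were called higher and 1 lower, against 21.9% called over all tested genes. After Foxj1 the smallest p-values were those of Rfx2 (1.41 on the log2 scale) and Rfx3 (0.40), with edgeR adjusted p of 1.19e-10 and 1.35e-05.

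Myb, a transcription factor of dividing progenitors that also drives early multiciliated cells, had the highest mean FPKM (level per gene length) of the members in each group. It had 11154 and 12420 counts in wild-type and 12823 and 9983 in Foxn3KO libraries, or 450 and 457 against 440 and 446 CPM. Both Foxn3KO libraries lay slightly below both wild-type libraries. Its log2 fold change was -0.03 with a 95% interval of -0.12 to 0.05 (edgeR adjusted p = 0.602). The antisense gene Gm26577 overlaps Myb and had 8 to 16 counts per library, small beside those of Myb.

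Trp73, the p53 family member that acts downstream of Gmnc, had few counts. It had 26 and 52 counts in wild-type and 44 and 20 in Foxn3KO libraries, so the groups overlapped. Replicates of 1 label differed more than the group means did (1.48 CPM in wild-type and 1.20 CPM in Foxn3KO libraries). The log2 fold change was -0.28 with a wide 95% interval of -1.01 to 0.46 (edgeR adjusted p = 0.628). Leaving out wild-type replicate 1 gave -0.62 and leaving out Foxn3KO replicate 1 gave -0.74, and its sign turned without wild-type replicate 2 (0.24) or without Foxn3KO replicate 2 (0.02). At this depth a fall to 0.496-fold or a rise to 1.38-fold lies within the interval. Trp53, the family's founding member, had a log2 fold change of 0.01 (edgeR adjusted p = 0.934), and Trp63 was not listed. The antisense gene Trp73os overlaps Trp73 and was not listed.

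Among the E2F complex subunits, E2f5 came nearest to the threshold. E2f5 had 38.7 and 36.7 CPM in wild-type and 43.9 and 41.2 CPM in Foxn3KO libraries, which did not overlap. Its log2 fold change was 0.18 with a 95% interval of 0.04 to 0.31 (edgeR adjusted p = 0.0621). It passed when at least 10 counts were required in every library (adjusted p = 0.0480 by edgeR) and without wild-type replicate 1 (log2 fold change 0.22, adjusted p = 0.0108 by edgeR). Rbis, which GENCODE M21 lists as 1810022K09Rik, overlaps the end of E2f5 on the opposite strand, and reads from the overlap may be shared. It had a log2 fold change of -0.26 (edgeR adjusted p = 0.0118), a call lost in DESeq2 (adjusted p = 0.0636) and without Foxn3KO replicate 2.

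E2f4, the main partner of Mcidas and Gmnc, had 70.1 and 67.6 CPM in wild-type and 66.0 and 66.7 CPM in Foxn3KO libraries. The groups were separated by less than 1 CPM, and the log2 fold change was -0.05 with a 95% interval of -0.17 to 0.06 (edgeR adjusted p = 0.520). Tfdp1, which pairs with E2F proteins to bind DNA, had 156 and 151 CPM in wild-type and 146 and 140 CPM in Foxn3KO libraries. Its log2 fold change was -0.10 with a 95% interval of -0.20 to -0.0049 (edgeR adjusted p = 0.128), and it passed only without wild-type replicate 2 (-0.12, edgeR adjusted p = 0.0170). E2f4, Tfdp1 and Myb were lower and E2f5, Ccno and Deup1 higher in both Foxn3KO libraries than in both wild-type libraries, 6 of 8 members without overlap, where 60.4% of all tested genes showed none.

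Gmnn had 1854 and 1740 counts in wild-type and 1867 and 1409 in Foxn3KO libraries, or 74.8 and 64.0 against 64.1 and 62.9 CPM. Wild-type replicate 1 stood above the other 3 libraries, which lay close together. The log2 fold change was -0.13 with a 95% interval of -0.26 to 0.01 (edgeR adjusted p = 0.183). Without wild-type replicate 1 it was -0.01 (edgeR adjusted p = 0.936), and without wild-type replicate 2 it was -0.23 (edgeR adjusted p = 0.000255), so the choice of wild-type library decided the call.

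Levels were compared between members per gene length, as FPKM from the authors' deposited values. In the wild-type libraries the order was Myb (50.6 ± 0.643 FPKM), Gmnn (47.2 ± 5.09), Tfdp1 (41.7 ± 0.837), E2f4 (28.0 ± 0.697), E2f5 (21.1 ± 0.786), Ccno (0.508 ± 0.170), Trp73 (0.266 ± 0.110) and Deup1 (0.128 ± 0.0245; SD, n = 2 each). Only Myb and Gmnn overlapped in range among neighbours in that order. In the libraries labelled Foxn3KO, Ccno stood at 4.46 ± 0.172 FPKM and Deup1, at 0.432 ± 0.055 FPKM, moved above Trp73 at 0.216 ± 0.0787 FPKM. Myb, Gmnn, Tfdp1, E2f4 and E2f5 thus stood at 20.5 FPKM or more in every library, and Ccno, Trp73 and Deup1 at 4.58 FPKM or less.

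**Figure D3:**
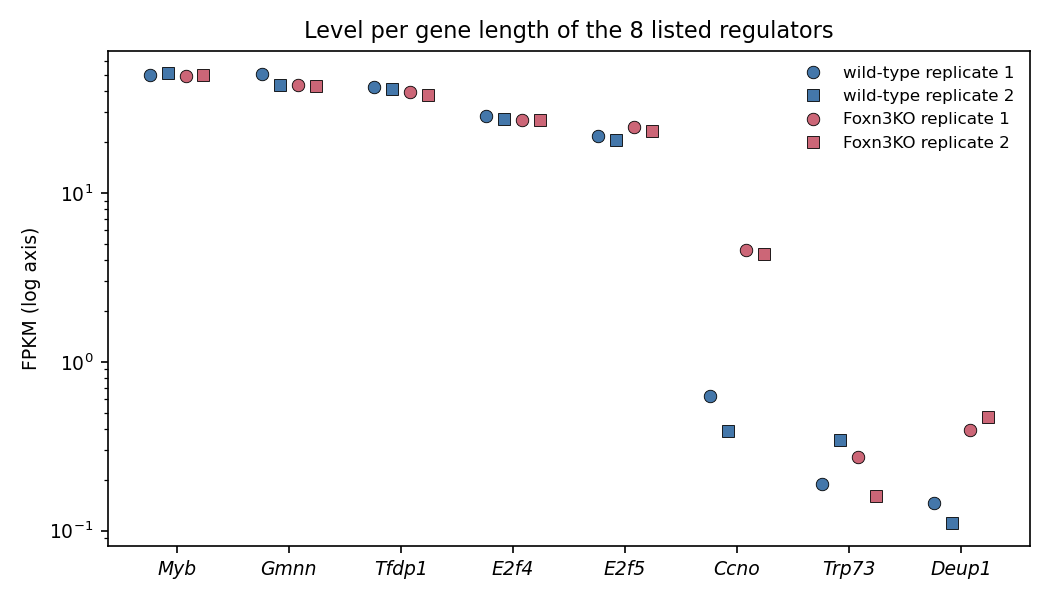
FPKM on a log axis (y) of the 8 listed regulators (x), ordered by wild-type mean; each point is a library, circles for replicate 1 and squares for replicate 2. Myb to E2f5 stay at 20.5 to 51.0 FPKM in all 4 libraries, while Ccno and Deup1 separate by label.

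Genes of the machinery around the members were described from fixed lists. The counts called in each list stand beside 21.9% called over all tested genes, 12.3% higher and 9.66% lower. Of the deuterosome and centriole assembly list, 13 of 15 genes were listed and 12 tested, with 1 called higher and 3 lower and a median log2 fold change of -0.07, against -0.0047 over all tested genes. Plk4, the kinase that starts centriole assembly, fell by 0.25 (log2; edgeR adjusted p = 0.0043), with group means of 91.3 ± 7.77 and 76.6 ± 2.12 CPM (SD, n = 2 per group). Without wild-type replicate 1 its change was -0.16. Cep57 (-0.22, edgeR adjusted p = 0.00913) and Stil (-0.22, edgeR adjusted p = 0.0138) also fell. Cep57 stood at -0.13 without wild-type replicate 1, and its call was lost without Foxn3KO replicate 2 (edgeR adjusted p = 0.0704). Stil did not pass in DESeq2 (adjusted p = 0.0515) or without Foxn3KO replicate 1 (-0.15, edgeR adjusted p = 0.308). Ccp110, a cap protein of centrioles named here after its values were seen, rose by 0.15 (log2; edgeR adjusted p = 0.0304). Its call was lost in DESeq2 (adjusted p = 0.0514), with total count scaling (edgeR adjusted p = 0.0588) and without either Foxn3KO library (edgeR adjusted p = 0.342 and 0.105), and its change was 0.10 without wild-type replicate 2. Ccdc78 and Fbxo43 were not listed. Ccno and Deup1 thus moved by larger amounts than the genes of general centriole assembly, whose called changes were all under 0.26 in size on the log2 scale; the differences between genes were not tested.

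Of the 17 E2F, RB and DREAM partners, none was called higher and 4 lower, with a median of -0.06. DREAM is the complex in which E2f4 with Rbl1 or Rbl2 represses cell cycle genes. Mybl1, a paralog of Myb, fell by 0.50 (log2; edgeR adjusted p = 3.31e-07), with group means of 192 ± 9.95 and 136 ± 1.00 CPM (SD, n = 2 per group). Mybl2, the paralog within the MuvB complex, had -0.05 (edgeR adjusted p = 0.677). E2f1 (-0.13, edgeR adjusted p = 0.0365) and Tfdp2, the paralog of Tfdp1 (-0.12, edgeR adjusted p = 0.0481), lay near the threshold, and neither passed in DESeq2 (adjusted p = 0.0873 and 0.117) or without either Foxn3KO library. E2f6, named after its values were seen, was the other gene called lower (-0.15, edgeR adjusted p = 0.0498). It did not pass in DESeq2 (adjusted p = 0.184) or without either Foxn3KO library (edgeR adjusted p = 0.142 and 0.432).

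Of the 14 origin licensing genes, on which geminin acts through Cdt1, 4 were called higher and 2 lower, with a median of 0.04. Cdt1 had a log2 fold change of 0.08 with a 95% interval of -0.04 to 0.19 (edgeR adjusted p = 0.364). The helicase subunits Mcm3 (0.25, edgeR adjusted p = 0.00384) and Mcm4 (0.19, edgeR adjusted p = 0.00408) rose, as did Mcm2 (0.15) and Mcm7 (0.14), named after their values were seen. Mcm3 stood at 0.15 without wild-type replicate 1. The call of Mcm4 was lost without Foxn3KO replicate 1 (edgeR adjusted p = 0.0963), and those of Mcm2 and Mcm7 without either Foxn3KO library. The origin recognition subunits Orc4 (-0.23, edgeR adjusted p = 0.00809) and Orc3 (-0.19, edgeR adjusted p = 0.0164, named after its values were seen) fell. Orc4 stood at -0.15 without wild-type replicate 1, and its call was lost without Foxn3KO replicate 2 (edgeR adjusted p = 0.0723). Orc3 did not pass in DESeq2 (adjusted p = 0.0575) or without Foxn3KO replicate 2 (edgeR adjusted p = 0.289).

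**Figure D4:**
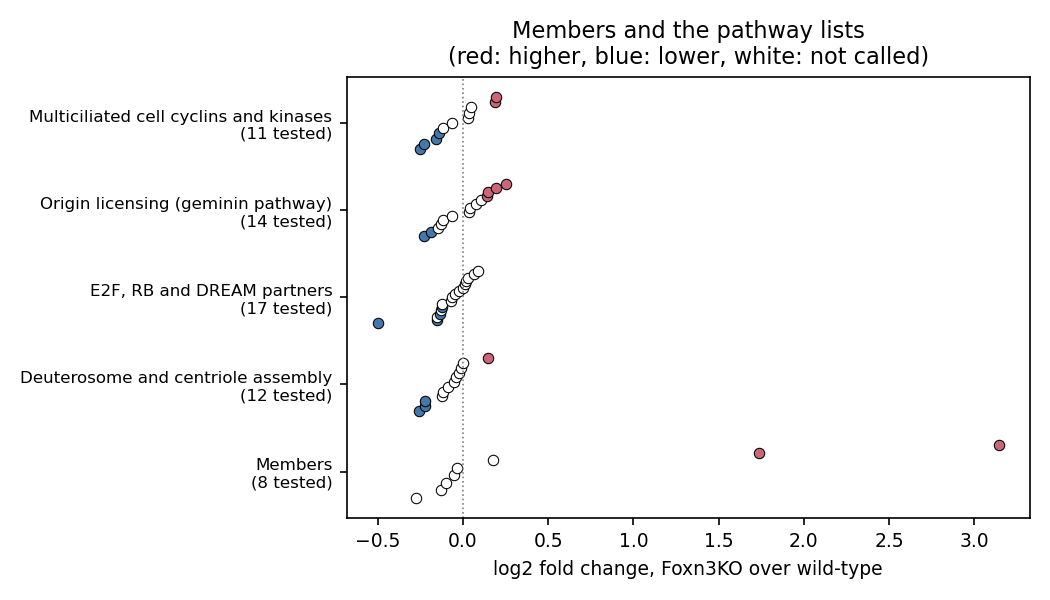
Log2 fold change (x axis, Foxn3KO over wild-type) of each tested gene of the members and of 4 pathway lists (y axis), red where called higher, blue where called lower and white where not called. Ccno and Deup1 lie at 3.14 and 1.73, and no tested gene of the other 4 lists lies beyond 0.50 in size.

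Markers of other tissues were examined beside the rise of Ccno and Deup1. Over all tested genes 12.3% were called higher and 9.66% lower. None of 8 airway and nasal epithelium markers was listed. Of 8 choroid plexus markers, 6 were listed and 5 tested, with Folr1 higher and Ttr and Clic6 lower, and their summed level was 15.4 and 19.5 CPM in wild-type and 14.6 and 15.4 CPM in Foxn3KO libraries. Of 8 pigment epithelium and ciliary margin markers, 7 were tested, with none higher and 2 lower (Pmel and Tyr), and a sum of 51.6 and 73.8 CPM against 43.0 and 44.2 CPM. Of 8 lens markers, 7 were tested and all 7 were higher, with a sum of 7.58 and 59.7 CPM in wild-type and 260 and 258 CPM in Foxn3KO libraries. No listed marker was at 0 in any library. In wild-type replicate 1 the lens sum was lower than in wild-type replicate 2. Ccno counts in these libraries were low, at 40 and 27, so their order is uncertain. The part of lens RNA in the rise of Ccno and Deup1 was not tested.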

How the data were processed

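Total RNA (500 ng per library) from retinas was sequenced with a strand-specific kit and adaptors carrying molecular identifiers, per the labels' protocols. The authors deposited whole-number counts per gene without normalization, used here for all tests, and FPKM values, used here to compare levels between genes. The deposited table also holds a mean signal, log2 fold changes with their errors (a score here) and p-values of the authors. Only their log2 fold changes of Ccno and Deup1 and their adjusted p of Deup1 are printed. The submitters' processing notes name mm39 and DESeq2; the aligner, counter, annotation, strand setting and use of identifiers are not given in the sources used here.

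Of 18472 rows, 1 repeated identifier was dropped. Genes were filtered with filterByExpr, scaled with TMM and fitted on genotype alone with edgeR 4.0.16 (R 4.3.3; glmQLFit with legacy=FALSE, two-sided). P-values were adjusted after Benjamini-Hochberg over 17300 genes, with a threshold of 0.05. The smallest sum of a listed gene was 16 counts, and 3 counts corresponded to 0.103 to 0.134 CPM, which covers counting error only. On simulated data of 17300 genes, 174 of 200 changed genes were called, and 15 unchanged ones. The data were drawn from the kind of model that was fitted. The planted changes were larger than most called changes of the named genes. The share called therefore does not apply to small changes, nor to data in which many genes change. Alternatives were RLE and total count scaling, no filter, a minimum of 10 counts per library, limma-voom (limma 3.58.1), DESeq2 1.42.0, the earlier edgeR fit, a replicate block and leaving out each library. Embryos were separate per the labels, with 2 a group. The p-values and intervals rest on the spread between these embryos together with spread that the fit shares across all tested genes. They are therefore not a measure of the spread between the embryos alone. Members, lists and motifs were chosen with earlier results of these data known. Named genes were all members, Foxn3, Foxj1, Xist, the locus neighbours, Plk4, Cdt1 and, of each other pathway list, the 3 called genes with the smallest p. A retinal marker is not reported here.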

Additional observations from a re-analysis of the deposited data

How the results depend on the processing

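Ccno and Deup1 were called higher under each of the 12 alternatives, with log2 fold changes of 2.83 to 3.52 and 1.54 to 1.93. The members called numbered 2 to 4 when a library was left out; the 4, without wild-type replicate 2, were Ccno, Deup1, Gmnn and Tfdp1. In those fits 1 library stands for its group and is assumed to vary like the others. E2f5 also passed with the replicate block (adjusted p = 0.0449 by edgeR). With a library left out, Trp73 ranged from -0.74 to 0.24, Cep63 from -0.056 to 0.036, Mybl2 from -0.093 to 0.0029, Trp53 from -0.049 to 0.072 and Ccna1 from -0.59 to 0.57, each with a change of sign. The sign also turned for Trp53 with total count scaling (-0.012) and for Ccna1 in limma-voom (-0.071). Over all genes, 3795 were called, against 2437 by DESeq2 and 2323 to 5068 with a library left out (2330 without Foxn3KO replicate 1 and 2323 without Foxn3KO replicate 2); the cause was not tested. The replicate differences of the groups were nearly uncorrelated (-0.0083 over 17300 genes), which gave no sign that equal replicate numbers mark paired samples. With 1 difference per group, this cannot exclude pairing. With the replicate block 4222 genes were called. For single named genes, the alternatives with all 4 libraries gave 331 results on the same side of the threshold, 16 weaker, 2 stronger and 2 of the other sign, and leaving out a library gave 136, 29, 4 and 7. Depth limits Deup1, Trp73 and Cdc20b most.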

Other observations

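Cell cycle cyclins and kinases that multiciliated cells are known to reuse went both ways. Of 11 tested, 2 were called higher and 4 lower, with a median log2 fold change of -0.06. Cdk2, a kinase active during centriole amplification, fell by 0.23 (log2; edgeR adjusted p = 0.00321), with group means of 100.3 ± 1.47 and 85.7 ± 3.37 CPM (SD, n = 2 per group). Its partners Ccne2 (-0.25, edgeR adjusted p = 0.00818) and Ccna2 (-0.16, edgeR adjusted p = 0.00941) also fell. Each of these 3 calls was lost without Foxn3KO replicate 2 (edgeR adjusted p = 0.113, 0.146 and 0.147), and that of Ccna2 also without Foxn3KO replicate 1 (edgeR adjusted p = 0.248). Plk1 (0.19) and Fzr1 (0.19) rose and Ccnb1 (-0.14) fell, named after their values were seen. All 3 calls were lost without either Foxn3KO library, and Ccnb1 did not pass in DESeq2 (adjusted p = 0.101). Ccna1, a cyclin known from meiosis and multiciliated cells, had 41 and 37 counts in wild-type and 29 and 50 in Foxn3KO libraries, which overlapped.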
